A study of Mus musculus with 4 samples.

Results

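Alveolar macrophages without the Cre reporter were 146 of the 20351 cells in a single-cell RNA sequencing matrix of mouse lung tumors. They were chosen by measured counts of unique molecular identifiers (UMIs, 1 per captured transcript). A cell had to hold at least 200 detected genes, at most 13.4% mitochondrial UMIs, at least 4 UMIs summed over Marco, Fabp1, Ctsk and Atp6v0d2, fewer than 10 UMIs of the complement genes C1qa, C1qb and C1qc, fewer than 10 UMIs of the surfactant gene Sftpc, and 0 or 1 UMI of TdTomato. Since these counts chose the cells, they are given as a description only. Cells that met every condition except the last formed a gate of 2049 cells. Reporter-carrying alveolar macrophages were the 1804 gate cells with 5 or more TdTomato UMIs.

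All mice were female and carried Lkb1XTR/XTR, in which Cre inverts a gene trap that stops Lkb1 (gene symbol Stk11) and expresses GFP. Tumors were started by Lenti-Cre instilled into the trachea, were left for 16 weeks, and were followed by tamoxifen (4 mg doses) for the last 2 weeks in all animals. The 2 Restored mice were Rosa26LSL-tdTomato/FLPo-ERT2, so that tamoxifen removed the trap, and the 2 Non-Restored mice carried Rosa26LSL-tdTomato without FLPo-ERT2. Viable cells were sorted on DAPI alone, so the sort took no account of tdTomato.

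No file used here ties a cell to a mouse. The pooled matrix is therefore 1 sample, Restored and Non-Restored cells cannot be told apart, and no test or p-value is given. Ranges in parentheses are exact 95% intervals, which cover counting error only. In Restored mice FLPo-ERT2 takes the second Rosa26 allele, so reporter counts and mouse genotype cannot be told apart either. Cell barcodes shared between libraries were not analysed here. The study itself set aside tdTomato-positive cells outside the epithelium.

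Alveolar macrophages live on the airway side of the alveolus, where they take up and break down surfactant lipid and particles. They depend on GM-CSF and the transcription factor PPARg, renew themselves locally, and differ from interstitial and monocyte-derived macrophages, which sit in the tissue and commonly carry C1q and MHC class II. Because they line the airspace, they are exposed to a vector that is instilled into the airway. The tdTomato reporter is switched on for good by Cre, so a cell without it has no sign of recombination at that allele, within the limits of detection.

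Among the 2049 gate cells, 7.13% (6.05 to 8.33) had 0 or 1 TdTomato UMI, 4.83% (3.94 to 5.85) had 2 to 4, and 88.0% (86.6 to 89.4) had 5 or more. Of the 146 reporter-free cells, 105 held 0 TdTomato UMIs and 41 held 1. Reporter-carrying cells had a median of 16.0 and a maximum of 62 TdTomato UMIs. The counts formed a peak at 0 and a separate broad hump, with 39, 25 and 35 cells at 2, 3 and 4 UMIs between them.

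The typical cell was as deep with as without the reporter. The reporter-free median was 5807 UMIs and 2095 genes per cell, against 5738 UMIs and 2102 genes in reporter-carrying cells, and the median mitochondrial share was 3.80% against 4.07%. The reporter-free group did contain more shallow cells, since 17 of 146 had fewer than 2000 UMIs, against 4 of 1804. At the edges of the rule, 10 reporter-free cells sat at exactly 4 UMIs of the 4 genes, and 27 further cells would have entered with 3. C1q was scarcely present, with 139 of the 146 cells at 0 UMIs of the 3 genes and none at 5 to 9.

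The reporter-free cells held TdTomato at 50.9 CPM (36.5 to 69.1), where CPM is counts scaled to a library of 1000000 UMIs, where the rule allows at most 1 per cell. T cells, taken as the reference for free RNA, held 140 CPM (132 to 148) with no limit set on them, and 21.8% (20.6 to 23.1) of 4179 T cells had at least 1 TdTomato UMI at a lower median depth of 1710 UMIs. Cells with at least 1 TdTomato UMI were therefore also seen in a cell type other than macrophages and epithelium. Reporter-carrying cells held 2776 CPM and epithelial cells 5724 CPM.

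**Figure D1:**
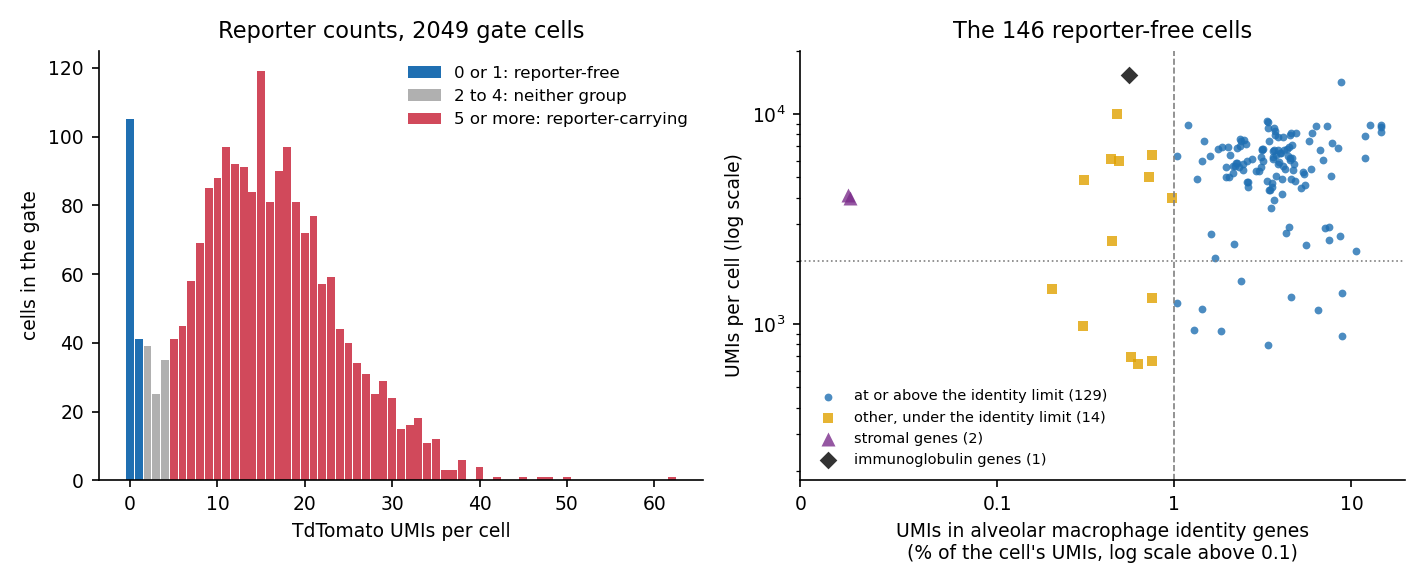
Left, number of gate cells (y axis) at each TdTomato UMI count (x axis), with the 105 and 41 reporter-free cells at 0 and 1 in blue and reporter-carrying cells in red. Right, the 146 reporter-free cells by their share of UMIs in alveolar macrophage identity genes (x axis, percent) and their depth (y axis, log scale). The dashed line marks 1% and the dotted line 2000 UMIs, and 17 cells lie left of 1%. The cell with the largest share, 23.9487%, lies beyond the axis and is not drawn.

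The label was checked against 20 alveolar macrophage identity genes that the rule did not use, among them Chil3 (a chitinase-like lectin abundant in these cells), Car4 (a carbonic anhydrase), Ear2 (a ribonuclease), Cd9, Mrc1 and Pparg. Together they took a median of 3.49% of a reporter-free cell's UMIs and 3.09% of a reporter-carrying cell's, against 0.164% in C1q-high macrophages. The middle of the distribution was similar, with quartiles of 2.15% and 4.59% in reporter-free cells and 2.35% and 3.99% in reporter-carrying cells. C1q-high macrophages are the 2073 cells with at least 10 C1q UMIs, at most 1 UMI of the 4 genes and at most 1 TdTomato UMI.

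A tail of the reporter-free cells was low in identity genes, and a few of these cells went against the label. In 17 of 146 cells (11.6%, 6.93 to 18.0) fewer than 1% of UMIs came from identity genes, against 9 of 1804 reporter-carrying cells (0.499%, 0.228 to 0.945). This limit was set after the cells had been seen, and 8 reporter-free cells lay between 0.5% and 1% with another 8 between 1% and 1.5%. The list summed to 40581 CPM in reporter-free cells and to 9008 CPM without Chil3, so the limit depends largely on Chil3. Of the 17, 6 had fewer than 2000 UMIs and 5 had no Chil3 UMI.

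The 17 cells were of several kinds. A pair carried 166 and 115 UMIs of stromal genes (Col1a1, Col1a2, Col3a1, Dcn, Mgp), with 85 and 99 UMIs of Ibsp, a mineral-binding bone matrix protein, 5 UMIs of Ctsk each, and no Lyz2. They entered the gate on Ctsk alone, a protease gene also known from bone-resorbing cells and fibroblasts. One cell held 3036 Igkc, 1015 Igha and 580 Jchain UMIs, the light chain, IgA heavy chain and joining chain of secreted antibody, which made up 30.1% of its 15405 UMIs. Another held 148 Cd74 and 57 H2-Aa UMIs beside 21 Chil3 UMIs. Lyz2 and the chemokine gene Ccl6 varied among the rest. They had 93 and 87 UMIs in a cell of 4001 UMIs, 35 and 57 in a cell of 4853, and 8 and 5 in a cell of 6379. A share under 1% thus did not by itself mark another cell type. None of the 17 was called a doublet by Scrublet, which called 1 of the 146 reporter-free cells. No reporter-free cell held 10 or more UMIs of T and NK cell, endothelial or epithelial genes.

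The 4 genes of the rule were not evenly represented. Atp6v0d2, a subunit of the lysosomal proton pump, stood at 996 CPM (878 to 1126) in reporter-free cells and 851 CPM (821 to 882) in reporter-carrying cells, and Ctsk at 919 against 893 CPM. Marco, a scavenger receptor for particles and bacteria, stood at 155 CPM (111 to 211) against 336 CPM (317 to 356), and Fabp1, a fatty acid binding protein, at 244 CPM (188 to 312) against 413 CPM (392 to 434). The reporter-free gate cells thus passed with relatively more Ctsk and Atp6v0d2 and less Marco and Fabp1. These values, like all gene levels below unless stated, were read after each cell had been thinned to 2000 UMIs, which kept 129 reporter-free and 1800 reporter-carrying cells.

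The first comparison asked how far alveolar macrophages without the reporter differed from those with it. They were close to each other. Over 1405 genes with a mean of at least 100 CPM, without genes of the rule and mitochondrial genes, the median log2 ratio of reporter-free over reporter-carrying cells was -0.05, and 1305 genes (92.9%) lay within 0.5 of 0. Pearson's r of the log levels across genes was 0.954, a description of these 2 sums in which genes are not independent replicates. Past 2-fold, with 10 CPM added to both sides, 13 genes (0.925%) were higher in reporter-free cells and 1 gene (0.0712%) was lower, or 0.996% in either direction.

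The 13 higher genes fell into 3 kinds. Igkc, Igha and Jchain came from the antibody-rich cell, which gave 98.4% of Igkc and 100% of Igha and Jchain UMIs. Ibsp came from the stromal pair. The remaining 9 were spread over more cells: H2-Aa, H2-Ab1, H2-Eb1 and Cd74 of MHC class II, and AW112010, Fn1 (fibronectin), Fstl1 (a secreted glycoprotein), Inhba (a subunit of activin) and S100a6 (a calcium-binding protein). When both groups were limited to the 118 and 1791 deep cells with at least 1% of UMIs in identity genes (identity-positive cells), 6 of 1390 genes (0.432%) were higher and 2 (0.144%) lower, and r was 0.976. The 6 were the 4 class II genes, AW112010 and Fstl1.

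**Figure D2:**
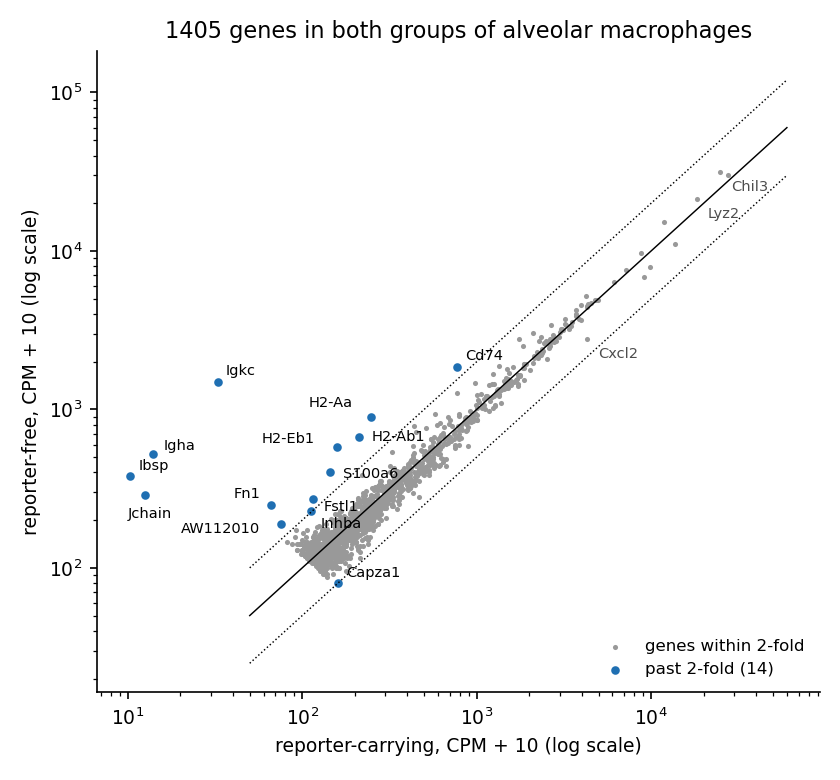
Level of each of 1405 genes in reporter-carrying (x axis) and reporter-free (y axis) alveolar macrophages, in CPM + 10 on log axes, from sums of cells thinned to 2000 UMIs. The solid line marks equal levels and the dotted lines 2-fold; the 14 genes past 2-fold are labelled, and 92.9% of genes lie within 0.5 log2 units.

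Fn1, Inhba and S100a6 depended on few cells. Fn1 stood at 240 CPM against 56.1 CPM, but 5 cells held 82.3% of its UMIs, and the log2 ratio was 2.10 (1.66 to 2.52) in all cells and 0.87 in identity-positive cells. S100a6 stood at 391 against 135 CPM, with a log2 ratio of 1.54 (1.21 to 1.85) in all cells and 0.00 in identity-positive cells. Inhba stood at 217 against 102 CPM, a log2 ratio of 1.09 (lower bound 0.66), with 58.9% of its UMIs in 5 cells. Fstl1, at 264 against 105 CPM, was detected in 17.1% of reporter-free and 9.39% of reporter-carrying cells, and its log2 ratio was 1.32 in all cells and 1.14 in identity-positive cells.

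On the lower side only Capza1, which caps actin filaments, passed 2-fold, at 69.8 against 150 CPM (log2 ratio -1.11, -1.87 to -0.43). Without thinning its ratio was -0.41. The next genes on this side by size included Pld4, Phlda1, Hcls1, Mrpl33, Cxcl1, Nr4a1, Serpinb1a and Samsn1, with log2 ratios between -0.98 and -0.76, none past 2-fold. Mrpl33, a mitochondrial ribosome protein, and Cxcl1, a neutrophil chemokine, passed 2-fold in identity-positive cells, with log2 ratios of -1.12 and -1.09 there.

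The MHC class II genes gave the largest list difference among macrophage programs. Class II molecules present peptides to CD4 T cells: H2-Aa, H2-Ab1 and H2-Eb1 encode the chains, Cd74 the invariant chain that guides them, H2-DMa and H2-DMb1 the peptide exchange factor, and Ciita the transactivator of the group. Summed over 8 genes the level was 4267 CPM in reporter-free and 1642 CPM in reporter-carrying cells, a log2 ratio of 1.38 (1.28 to 1.47), and 1.33 in identity-positive cells. Of the 6 members in the tested background, 4 were past 2-fold higher and none lower, with a median of 1.46, against 0.925% of all genes and a median of -0.05.

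The chain genes and Cd74 were all higher, and the exchange factor genes were not. H2-Aa stood at 884 CPM in reporter-free and 238 CPM in reporter-carrying cells, a log2 ratio of 1.89 (1.67 to 2.10). H2-Ab1 stood at 659 against 202 CPM (1.70, 1.45 to 1.94), H2-Eb1 at 566 against 147 CPM (1.94, 1.67 to 2.21), and Cd74 at 1849 against 759 CPM (1.28, 1.14 to 1.42). H2-DMa, at 174 against 162 CPM (0.10, -0.37 to 0.54), and H2-DMb1, at 112 against 120 CPM (-0.10, -0.69 to 0.45), had intervals that included no difference. Ciita was near the detection limit with 6 UMIs in reporter-free cells (23.3 against 7.22 CPM).

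The 3 chain genes lie together on mouse chromosome 17 (mm10), H2-Ab1 at chr17:34257689-34269419 on the plus strand, H2-Aa at chr17:34282744-34287823 on the minus strand and H2-Eb1 at chr17:34305867-34316674 on the plus strand. Promoters of class II chain genes are known to share a short Y box, bound by the factor NF-Y. Its letters CTGATTGG, on either strand, occurred in 1346 of 32851 RefSeq promoters of the GRCm38.p6 build (4.10%), each 250 bases before to 50 after a gene's start. They occurred in the single promoters of H2-Aa and H2-Eb1, and not in the 2 promoters of H2-DMa or the single ones of H2-DMb1 and H2-DMb2. H2-Ab1 and Ciita had no promoter entry and were not searched, and Cd74 was not looked up. Only the exact 8 letters were sought, so a promoter without them may still hold a variant of the box. The matches in H2-Aa and H2-Eb1 are shown because both genes are among the 4 class II genes past 2-fold. The 8 letters are in capitals, 5′ to 3′ on each gene's strand, at chr17:34287856-34287885 and chr17:34305794-34305823. The match is a description and not evidence of binding.
H2-Aa: aagagaattttCTGATTGGttctggcgagt
H2-Eb1: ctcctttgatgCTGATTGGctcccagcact

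The class II difference lay in a minority of cells. Over H2-Aa, H2-Ab1, H2-Eb1 and Cd74 the median cell held 0 UMIs of 2000 in both groups, and 56.6% of reporter-free and 58.4% of reporter-carrying cells held none. At least 10 UMIs were found in 23 of 129 reporter-free cells (17.8%, 11.7 to 25.5), in 9 of 87 cells with 2 to 4 TdTomato UMIs (10.3%, 4.84 to 18.7), and in 152 of 1800 reporter-carrying cells (8.44%, 7.20 to 9.83). In C1q-high macrophages the share was 98.8% with a median of 117 UMIs. T cells, which in mice should lack these genes and were thinned alike, reached 10.1% (8.58 to 11.8). The intervals of the reporter-free, middle and reporter-carrying cells all overlapped that of the T cells. For reporter-free cells the overlap was narrow, with a lower bound of 11.7% against the T cell upper bound of 11.8%. This reference holds only the 1426 of 4179 T cells deep enough for thinning, and 143 of them held 94.3% of its class II UMIs, with up to 130 in a cell, so it is uneven and its share may not stand for free RNA alone. Limited to identity-positive cells, the shares were 16.9% (20 of 118) and 8.38%. The 13 reporter-free cells with the most class II UMIs held 74.9% of them.

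**Figure D3:**
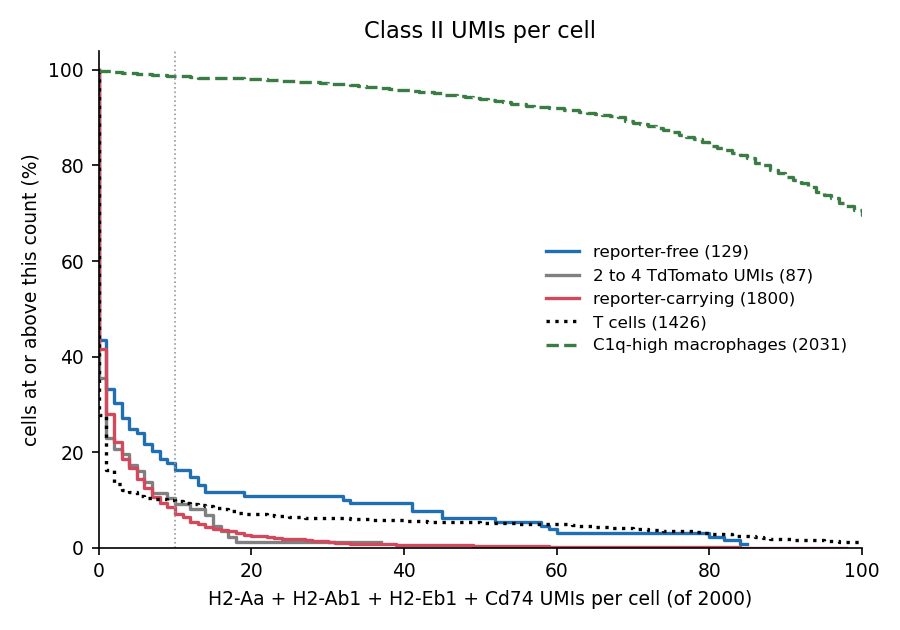
Share of cells (y axis, percent) with at least a given number of UMIs of H2-Aa, H2-Ab1, H2-Eb1 and Cd74 (x axis), each cell thinned to 2000 UMIs, for the groups named in the legend with their cell numbers. At 10 UMIs (dotted line) the reporter-free curve stands at 17.8%, the reporter-carrying curve at 8.44% and the C1q-high curve at 98.8%.

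The 23 class II-high cells kept Chil3 and Lyz2 and had no UMI of Cx3cr1, Ccl17 or Cd72. All 23 had Chil3, at 23152 CPM against 33401 CPM in the other 106, and Lyz2 was at 21283 against 21325 CPM. Ear2 was at 2804 against 797 CPM (log2 ratio 1.81, 1.47 to 2.15) and AW112010 at 761 against 51.9 CPM. Cx3cr1, Ccl17 and Cd72 had 0 UMIs in the 23 and in the other 106 alike. C1qa also had 0 UMIs in the 23, but the rule itself kept C1q low in every reporter-free cell. Fn1 was at 1000 against 75.5 CPM, in 7 of the 23 cells, and the class I gene H2-K1 at 2543 against 991 CPM. Marco had a UMI in 1 of the 23 cells against 24 of the 106, and Gpnmb was at 500 against 920 CPM. Of the 23 cells, 3 were under the 1% identity limit. The split was made on class II itself, and no gene here was chosen by a test.

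Chil3, lysosomal and lipid handling genes were higher in sum without the reporter. The identity list summed to 40581 CPM in reporter-free and 33900 CPM in reporter-carrying cells, a log2 ratio of 0.26 (0.23 to 0.29), against 277 CPM in T cells. No member of the 13 in the background passed 2-fold, and their median was 0.08. Chil3 made up most of the sum and nearly all of the difference, at 31574 CPM (30892 to 32267) against 24955 CPM (24792 to 25119). It was uneven among reporter-free cells, and some of the highest held 1222 of 8851, 1206 of 8646 and 1144 of 8176 UMIs as Chil3. The quartiles of the identity share, 2.15% and 4.59%, lay on both sides of those of carriers, 2.35% and 3.99%. A rise in every cell therefore cannot be read from the sum or its counting interval. The other 19 genes summed to 9008 against 8945 CPM (0.01, -0.05 to 0.07). Car4 was at 709 against 438 CPM (0.69, 0.47 to 0.92) and the integrin gene Itgax at 376 against 211 CPM (0.84, 0.52 to 1.14). Pparg, at 136 against 111 CPM, Ear2, at 1155 against 1091 CPM, and Cd9, at 3186 against 3380 CPM, had intervals that included no difference. Il18, a cytokine, was at 585 against 737 CPM (-0.33, -0.58 to -0.10). Ear6 had no UMI in either group.

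Genes of surfactant lipid handling summed to 5988 against 5244 CPM (0.19, 0.12 to 0.27), with 0 of 10 members past 2-fold and a median of 0.07. Fabp5, a fatty acid carrier, was at 922 against 566 CPM (0.71, 0.51 to 0.90) and Plin2, which coats lipid droplets, at 1446 against 1215 CPM (0.25, 0.09 to 0.40). The lipid exporter Abcg1, at 550 against 609 CPM, Lpl, a lipase, at 663 against 696 CPM, and the scavenger receptor Cd36, at 174 against 226 CPM, had intervals that included 0. Lysosomal genes summed to 21457 against 18572 CPM (0.21, 0.17 to 0.25), with 0 of 18 past 2-fold. The proteases Ctss, at 3027 against 2083 CPM (0.54, 0.43 to 0.65), and Ctsl, at 527 against 318 CPM (0.73, 0.46 to 0.99), were higher, and Ctsd, at 4663 against 4540 CPM, was level.

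Immediate-early and inflammatory genes leaned the other way. The 12 immediate-early genes, which include stress-induced transcription factors that tissue dissociation also induces, summed to 9333 against 10939 CPM (-0.23, -0.29 to -0.17), with 0 of 12 past 2-fold. Egr1 was at 578 against 886 CPM (-0.62, -0.86 to -0.38) and Fos at 2070 against 2532 CPM, while Atf3 was at 791 against 583 CPM (0.44, 0.22 to 0.65). Cytokines and chemokines summed to 10314 against 11631 CPM (-0.17, -0.23 to -0.12), with 0 of 12 past 2-fold and a median of -0.38. Cxcl2, which recruits neutrophils, was at 2764 against 4305 CPM (-0.64, -0.75 to -0.53), Ccl3 at 558 against 744 CPM and Ccl4 at 287 against 421 CPM. The part of dissociation in these values was not tested.

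The remaining macrophage lists gave small or uncertain differences. Tumor-associated macrophage genes summed to 5698 against 4806 CPM (0.25, 0.17 to 0.32), with Spp1, a secreted glycoprotein, at 578 against 424 CPM and Arg1 at 1 UMI in reporter-free cells. Monocyte genes summed to 1000 against 890 CPM (0.17, -0.02 to 0.35), and to a log2 ratio of -0.14 in identity-positive cells; Ly6c2 and Ccr2 had 3 UMIs each. Interstitial macrophage genes were at 128 against 144 CPM, where C1q-high macrophages had 2835 CPM, and Lyve1, Folr2, Cd163, Stab1 and Cbr2 had 0 UMIs. Interferon-stimulated genes were at 333 against 247 CPM (0.43, 0.09 to 0.75), of which Ifitm3 gave 116 against 15.8 CPM, with 86.7% of its UMIs in 5 cells. Cell cycle genes were at 1547 against 1464 CPM (0.08, -0.07 to 0.23). At least 2 of 10 cycling genes were detected in 8 of 129 reporter-free cells (6.20%, 2.72 to 11.9) and in 4.61% (3.69 to 5.68) of reporter-carrying cells, and in 8.90% against 8.98% without thinning.

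**Figure D4:**
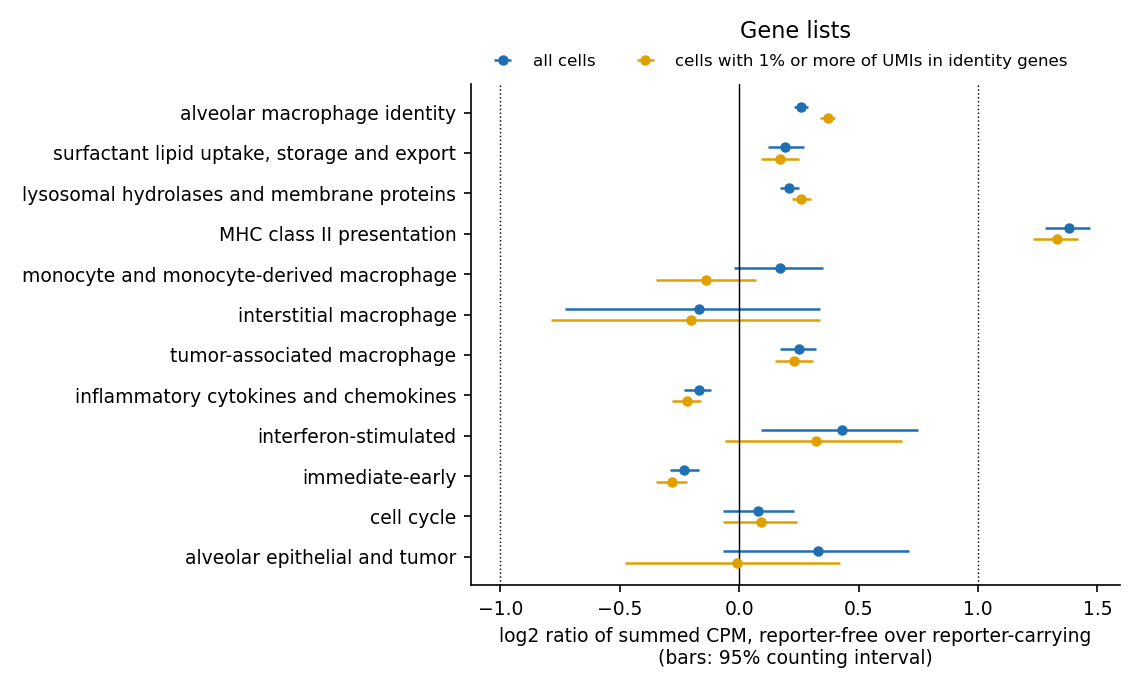
Log2 ratio of the summed CPM of 12 gene lists (rows), reporter-free over reporter-carrying cells, with 95% counting intervals, for all cells (blue) and for cells with at least 1% of UMIs in identity genes (orange). The solid line marks equal levels and the dotted lines 2-fold, which only MHC class II presentation passed, at 1.38 and 1.33. The orange value of the identity list is read on the genes that chose those cells.

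Lists of other cell types were low apart from the few cells named above. B and plasma cell genes summed to 1791 against 37.5 CPM in all cells and to a log2 ratio of -0.31 (-1.46 to 0.65) in identity-positive cells. Stromal genes summed to 527 against 3.61 CPM, and to 0 UMIs in identity-positive reporter-free cells. T and NK cell genes were at 38.8 against 22.8 CPM, neutrophil genes at 318 against 303 CPM, endothelial genes at 54.3 against 55.6 CPM, and conventional dendritic cell genes at 23.3 against 10.6 CPM, and Clec9a, Cd79b and Ms4a1, which define dendritic or B cells, had 0 UMIs. Red blood cell genes had 0 UMIs.

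Epithelial RNA was at the level seen in T cells. Alveolar epithelial and tumor genes summed to 236 CPM in reporter-free cells, 188 CPM in reporter-carrying cells and 225 CPM in T cells, against 42064 CPM in epithelial cells. Sftpc, which the rule held below 10 UMIs, was at 52.2 CPM (37.6 to 70.5) without thinning, against 44.8 CPM in reporter-carrying and 71.3 CPM in T cells. Napsa, an aspartic protease of the surfactant pathway, was at 101 against 45.6 CPM, with a log2 ratio of 1.15 in all cells and 0.28 (-0.66 to 1.09) in identity-positive cells.

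The state of the Lkb1 allele could not be resolved. GFP, expressed from the inverted trap, had 2 UMIs in 2 of 146 reporter-free cells (1.37%, 0.166 to 4.86) and 64 UMIs in 61 of 1804 reporter-carrying cells (3.38%, 2.60 to 4.32), in sums of all UMIs. The log2 ratio of -1.23 had an interval from -4.31 to 0.68. GFP had 0 UMIs in 4179 T cells, which allows up to 0.341 CPM, and 0 in 2073 C1q-high macrophages, which allows up to 0.309 CPM, against 27.5 CPM in epithelial cells. Stk11 was at 16.1 CPM (8.60 to 27.6), or 13 UMIs, in reporter-free cells and at 17.3 CPM in reporter-carrying cells, a log2 ratio of -0.10 (-1.04 to 0.71). A Stk11 difference within that interval was not detectable at this depth.

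Ordering gate cells by their TdTomato count separated 2 patterns. Class II genes showed a step. Their sum was 4271 CPM (3981 to 4577) in cells with 0 TdTomato UMIs and 4886 CPM (4382 to 5432) with 1, but 1580 CPM (1399 to 1779) with 2 to 4, 1656 with 5 to 9, 1642 with 10 to 19 and 1601 with 20 or more. The sums on both sides of the rule's limit thus differed, while those of reporter-carrying cells were alike at all counts. Few cells carried this difference. Only 35 cells at 1 TdTomato UMI were deep enough, and 13 reporter-free cells held 74.9% of the UMIs of the 3 chain genes and Cd74. The shares of cells with at least 10 of these UMIs had overlapping intervals. They were 17.8% (11.7 to 25.5) in reporter-free cells and 10.3% (4.84 to 18.7) at 2 to 4 TdTomato UMIs.

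The sums of identity, lysosomal, inflammatory and immediate-early genes instead were graded within the reporter-carrying cells. Over all carrying cells the identity sum was 33900 CPM, of which the genes other than Chil3 gave 8945 CPM. The bins were not read without Chil3, so the identity gradient may be largely that of Chil3. The identity sum was 40771 CPM at 0, 38057 at 1 and 41080 at 2 to 4 TdTomato UMIs, and then 38532, 33640 and 31189 CPM at 5 to 9, 10 to 19 and 20 or more. Immediate-early genes were at 9085, 9129 and 8057 CPM up to 4 UMIs and at 9085, 10827 and 12082 CPM above. Reporter-free cells were close to the low-reporter end of the carrying cells in these lists, so in these lists the distance from all reporter-carrying cells is larger than that from carriers with few reporter UMIs. Median depth was between 5572 and 6134 UMIs in the 6 bins, over the cells with at least 2000 UMIs that the bins hold. The mice behind each bin were not known, and their part in these gradients was not tested.

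**Figure D5:**
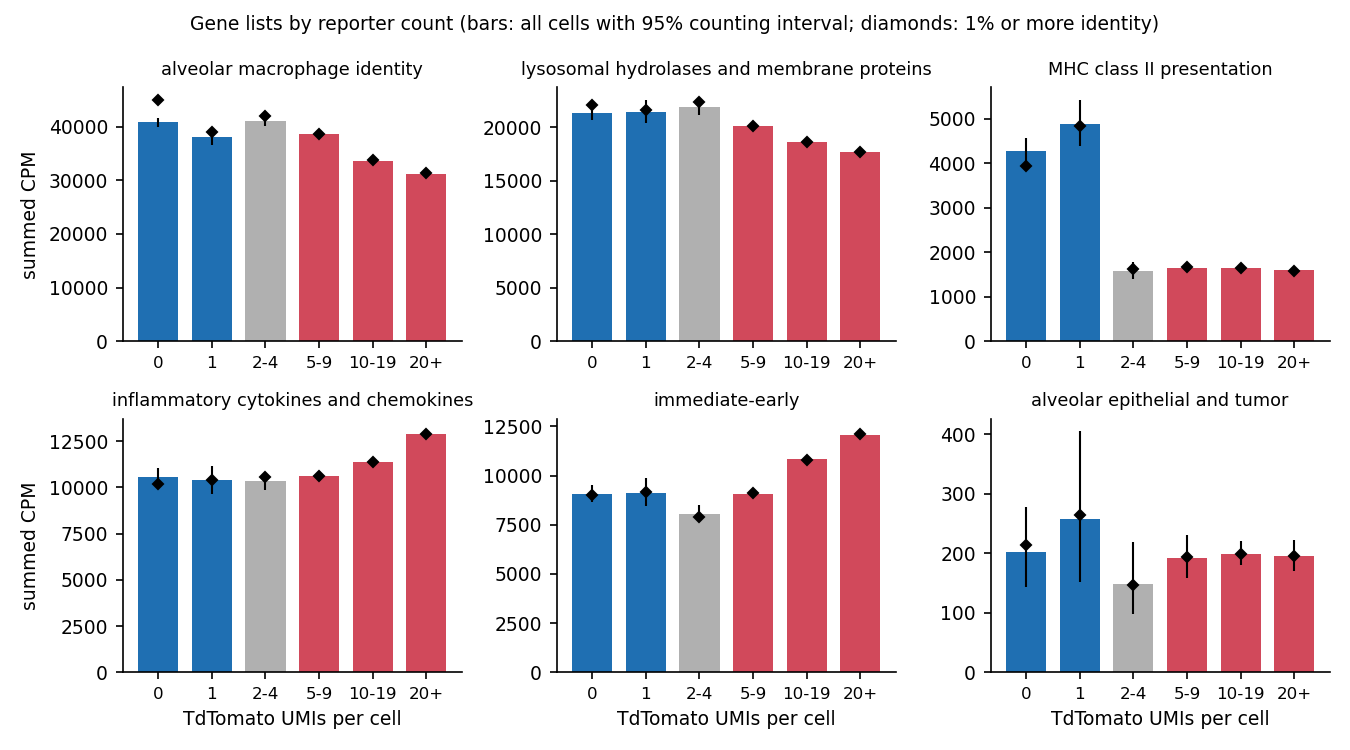
Summed CPM (y axes, from 0) of 6 gene lists in gate cells grouped by TdTomato UMIs (x axes), with 95% counting intervals; blue bars are reporter-free, grey in between and red reporter-carrying, and diamonds show cells with at least 1% of UMIs in identity genes. Class II drops from 4886 to 1580 CPM between 1 and 2 to 4 UMIs, while the identity sum declines from 38532 to 31189 CPM across the red bars. In the identity panel the diamonds are read on the genes that chose those cells, and the sum is mostly Chil3.

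The second comparison set the reporter-free cells against C1q-high macrophages, the other large macrophage group without the reporter. These were far apart. Of 1318 genes, 173 (13.1%) were past 2-fold higher in reporter-free alveolar macrophages and 127 (9.64%) lower, or 22.8% in either direction, and r across genes was 0.608. In identity-positive cells, 185 of 1304 genes (14.2%) were higher and 123 (9.43%) lower.

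Airspace genes led on the alveolar side. Chil3 stood at 31574 CPM against 26.8 CPM, a log2 ratio of 10.20 (9.93 to 10.49). Slpi, a secreted protease inhibitor, stood at 1465 against 5.91 CPM, Gpnmb, a lysosome-associated glycoprotein, at 845 against 1.72 CPM, Car4 at 709 against 1.48 CPM, Wfdc21 at 930 against 6.15 CPM, Fstl1 at 264 against 0.985 CPM and the chemokine Ccl6 at 5194 against 224 CPM. Ibsp, Igkc and Jchain were also among the 10 with the largest ratios, again through the 3 cells named above. Of the identity list, 7 of 10 members in this background were past 2-fold higher and none lower, against 13.1% higher and 9.64% lower over all genes. Members such as Chil3 and Car4 reached the floor through the reporter-free cells alone, so this count is a description only. Of surfactant lipid genes 8 of 11 were higher and 1, Apoe, lower, but their sum was lower, at 5988 against 6946 CPM (log2 ratio -0.21, -0.29 to -0.14). Of lysosomal genes 6 of 18 were higher and 2 lower, with Ctsd at 4663 against 286 CPM.

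Apoe and chemokine genes were among the largest ratios on the other side, and class II genes were lower too. Apoe, a lipoprotein, stood at 34.9 CPM in reporter-free cells and 5288 CPM in C1q-high macrophages (log2 ratio -7.24, -8.37 to -6.32). Ccl17, a T cell chemokine, had 0 UMIs against 1885 CPM and was at least 162-fold lower, taking 3 UMIs over the group (11.6 CPM) as the limit. On the same limit Asgr2 was at least 58.5-fold, the fractalkine receptor Cx3cr1 at least 24.9-fold, Cd72 at least 22.4-fold, the B cell chemokine Cxcl13 at least 22.2-fold and Ccl12 at least 18.9-fold lower. Aif1, Mgl2 and Tmem176a were at 7.75, 11.6 and 15.5 CPM against 602, 693 and 729 CPM. All 7 class II members of this background were past 2-fold lower, with a sum of 4267 against 59559 CPM, so that even with their class II-high minority the reporter-free cells stayed 3.80 log2 units below C1q-high macrophages. Monocyte genes were past 2-fold lower in 7 of 8 and interstitial macrophage genes in 6 of 6, against 9.64% of all genes.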

How the data were processed

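The authors dissociated microdissected lung tumors, sorted viable cells and prepared 10x Genomics 3′ libraries. The values the authors deposited are raw UMI counts, obtained by aligning reads to mm10 (with GFP and TdTomato added) in Cell Ranger 3.0.2 and held in 1 matrix of 20351 cells, 31055 features and 58624795 UMIs (median 1960 per cell). No column of authors' comparisons and no column of another sample was used. The mitochondrial limit (13.4%) was the 98th percentile over cells with at least 200 genes. It left 19892 cells.

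UMIs were summed per group after thinning each cell to 2000 (seeded draw) and scaled to CPM. Free RNA was not removed. CPM, shares and ratios have exact Poisson, Clopper-Pearson and conditional 95% intervals, for counting error only. Genes with a mean of at least 100 CPM over both groups formed the background, and a call was a 2-fold ratio with 10 CPM added. No test was possible. T cells held at least 2 UMIs of Cd3d, Cd3e, Cd3g and Trac. Doublets were sought with Scrublet in scanpy 1.11.5 at an expected rate of 6%, which marked 181 of 20299 cells (0.892%), and doublets were kept in the main values. Ratios were tested on simulated data, with counts drawn independently for each gene. UMIs gathered in a few cells were not simulated. The text names the 10 genes with the largest ratio in each direction, genes of 19 lists (220 genes, each matched to 1 feature), genes of the rule and the reporters. Inhba and the other genes past 2-fold, H2-K1 and the genes of the closing observations were named after their values were seen. The cells and lists were chosen with earlier results of these data known, and the 1% identity limit was added after seeing the data. An allele shared by all mice and 1 gene that the rule names are not reported here. Coordinates come from GENCODE vM21. Analyses used Python 3.11.15, numpy 2.4.6, scipy 1.17.1 and pandas 2.3.3.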

Additional observations from a re-analysis of the deposited data

How the results depend on the processing

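No paired analysis was possible because no file used here ties cells to mice, and leaving out a mouse was not possible for the same reason. Over the alternatives, 198 of 249 values stayed within the counting interval or within 1.5 times the main count, 50 moved and 1 reversed, the B and plasma cell ratio, which was 5.58 and became -0.31 in identity-positive cells. List ratios whose main interval included 0 changed sign under at least 1 setting for monocyte, interstitial, cell cycle, epithelial, T and NK cell (0.77 to -0.28), neutrophil (0.07 to -0.24), endothelial and dendritic cell genes. With 0 TdTomato UMIs required, the reporter-free share was 5.12%. Genes past 2-fold higher than in reporter-carrying cells were 13, 22 with a floor of 50 CPM and 6 in identity-positive cells. Genes past 2-fold lower were 1, and 13 at 1000 UMIs per cell, 4 with 0 TdTomato UMIs, 3 with a floor of 50 CPM, 2 with at least 10 TdTomato UMIs in the carrying cells, with under 5 C1q UMIs, with the reporter read after thinning or in identity-positive cells, and 0 at 4000 UMIs, without thinning or without Scrublet doublets. Against C1q-high macrophages a floor of 50 CPM gave 364 higher and 219 lower genes.

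The list log2 ratios that left their interval were as follows. At 1000 UMIs per cell they were 0.07 for surfactant lipid, -0.31 for immediate-early, 5.22 for B and plasma cell, 8.33 for stromal and -0.88 for dendritic cell genes, and at 4000 UMIs 0.23 for identity, 1.47 for class II, 0.37 for monocyte and -0.16 for epithelial genes. Without thinning they were 0.17 for lysosomal, 1.48 for class II, 0.15 for tumor-associated macrophage, -0.08 for epithelial and 6.62 for B and plasma cell genes. With 0 TdTomato UMIs they were 0.37 for interstitial, -0.12 for cell cycle and 6.07 for B and plasma cell genes, and with at least 10 in carrying cells 0.31 for identity. With at least 6 UMIs of the 4 genes they were 0.34 for identity, 1.22 for class II and -0.11 for inflammatory genes. Up to the 98th percentile of genes per cell they were 0.23 for identity and 0.04 for B and plasma cell genes. Without Scrublet doublets they were 1.52 for class II, 0.53 for neutrophil, 1.01 for endothelial and -1.34 for dendritic cell genes. With the reporter read after thinning they were 0.22 for identity, 0.16 for lysosomal, 1.27 for class II, -0.31 for immediate-early and 5.19 for B and plasma cell genes. In identity-positive cells, an alternative chosen after seeing the data, they were 0.37 for identity, 0.26 for lysosomal, -0.14 for monocyte and -0.31 for B and plasma cell genes. The identity ratio there is read on the same genes that chose those cells, so it is a description only. The cause of these shifts was not tested, other than that the stromal and antibody-rich cells are left out by the settings under which those lists lose their ratio; stromal genes then had 0 UMIs and no ratio with at least 6 UMIs of the 4 genes and in identity-positive cells. Red blood cell genes gave no ratio in the main setting. With 129 cells of 2000 UMIs, a gene needs about 11.6 CPM to be expected at 3 UMIs, which limits every low gene above.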

Other observations

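Other genes set reporter-free alveolar macrophages apart from C1q-high macrophages while the reporter made little difference to them. Clotting factors were among them, with F7 at 232.6 CPM in reporter-free, 224.7 CPM in reporter-carrying and 2.7 CPM in C1q-high cells, and F10 at 310.1, 306.1 and 24.6 CPM. Other genes well above C1q-high macrophages were Olr1, a receptor for oxidized lipoprotein, at 271.3, 322.8 and 6.2 CPM, Mgll, which hydrolyzes monoacylglycerol, at 345.0, 271.4 and 9.1 CPM, and Mertk, a receptor for apoptotic cells, at 220.9, 215.8 and 30.3 CPM. The iron storage genes Fth1, at 30166.7, 27686.7 and 11432.3 CPM, and Ftl1, at 9740.3, 8781.1 and 4649.7 CPM, were abundant in both alveolar groups. Detoxification genes followed, with Mgst1 at 492.2, 535.3 and 35.9 CPM and Gstm1 at 310.1, 296.7 and 22.6 CPM. Beside the proton pump subunit of the rule, Tcirg1, a second subunit of that pump, was at 170.5, 143.9 and 62.3 CPM and Acp5, a phosphatase also used to mark osteoclasts, at 306.2, 254.4 and 116.4 CPM. Each of these genes was past 2-fold against C1q-high macrophages, and they were picked from that list after their values were seen.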
